A study of Oreochromis niloticus with 6 samples.

Results

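Hemoglobin transcripts were followed in gill libraries of Nile tilapia (Oreochromis niloticus) of the GIFT strain, which was bred for farming. The 8 loci were taken from the 40538 rows of the deposited FPKM table by their identifiers. FPKM is a fragment count scaled to transcript length and to the size of the library. Of the 8 loci, 7 carry the gene ontology term for the hemoglobin complex, and MSTRG.5634 was included because it shares a gene name with another row that does. The KEGG orthology entry that the table gives to hbae3 and hbz was read as alpha (4 loci), and the one it gives to hbbe2 was read as beta (3 loci). MSTRG.5634 has no such entry, so its chain is not given. The identifiers fall into 2 numbered runs, 5 loci between the rows of nprl3 and kank2 and 3 loci next to the row of rhbdf1b.

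Per the labels, the 3 libraries labelled hypoxia came from fish whose water was stripped of oxygen with nitrogen in 30 min, to a dissolved oxygen of 1.02 mg/L (stated error 0.10), and the 3 labelled control from tanks kept at 5 mg/L. Gills of both groups were sampled at 96 h. The sources do not state the tank, number, sex or age of the fish behind a library, so p-values measure only the spread between these libraries. The labels disagree on the layout: the sample records give 90 fish in 3 tanks per group (15 a tank), the series text 4 replicates and 30 fish a tank.

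Hemoglobin is built from paired alpha and beta chains around heme, and it carries oxygen in the blood. Fish erythrocytes keep their nucleus and contain RNA, and the gill is full of blood, so globin RNA enters any gill library. Bony fish carry alpha and beta genes side by side in separate clusters, and different genes of a cluster can be used at different life stages or give hemoglobins that differ in their affinity for oxygen. In bulk tissue fewer erythrocytes and less globin RNA per erythrocyte cannot be told apart. Taking the share of one locus in the summed globin removes the scale of the globin content. The mix itself may still vary with that content.

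The label of the groups was checked first. The prolyl hydroxylase egln3, which is induced by hypoxia in most vertebrate tissues, was at 3.25, 2.55 and 3.95 FPKM in the libraries labelled hypoxia, against 112, 50.4 and 46.4 FPKM in those labelled control. This goes against the labels, and every direction below rests on them. The summed FPKM of a library was 466826 to 483691 in the libraries labelled hypoxia and 438405 to 455738 in those labelled control. Sequencing depth is unknown; from the smallest steps between low values, relative depth was 1.06 to 1.21 in the remaining libraries with hypoxia replicate 1 set to 1. Gill epithelium was present in all 6 libraries, with the keratin krt4 at 1213 to 1977 FPKM in those labelled hypoxia and 926 to 1093 FPKM in those labelled control.

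The shares of the abundant globin loci did not overlap between the groups, whereas the globin content did. The second beta locus MSTRG.5633 made up 20.3 to 29.2% of the summed globin FPKM in the libraries labelled hypoxia, against 5.83 to 9.34% in those labelled control. The alpha locus MSTRG.5635 made up 18.03 to 21.5% in the hypoxia-labelled libraries against 8.39 to 12.5% in the control-labelled ones. The major beta locus MSTRG.5641 had the converse pattern, with 42.6 to 52.1% in the hypoxia-labelled libraries against 70.01 to 77.4% in the control-labelled ones. With 3 libraries against 3 the exact permutation test cannot go below p = 0.10, so none of these differences could pass a threshold of 0.05. In the limma test of the levels, described below, 0 of 7 tested loci passed, beside 6.77% of all tested rows.

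The content is described before the mix. The 8 loci summed to 26216, 63074 and 34194 FPKM in the libraries labelled hypoxia, against 41505, 3228 and 3659 FPKM in those labelled control. Control replicate 1 lay among the libraries labelled hypoxia, and control replicates 2 and 3 lay below all of them. The ratio of means was 2.55. It was 11.95 without control replicate 1, and against control replicate 1 alone the mean of the libraries labelled hypoxia was 0.992 times as high. As a part of all FPKM in a library, globin took 5.62, 13.1 and 7.07% in the libraries labelled hypoxia, against 9.11, 0.736 and 0.834% in those labelled control. Within the libraries labelled control the sum spanned 12.9-fold, and within those labelled hypoxia 2.41-fold.

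**Figure D1:**
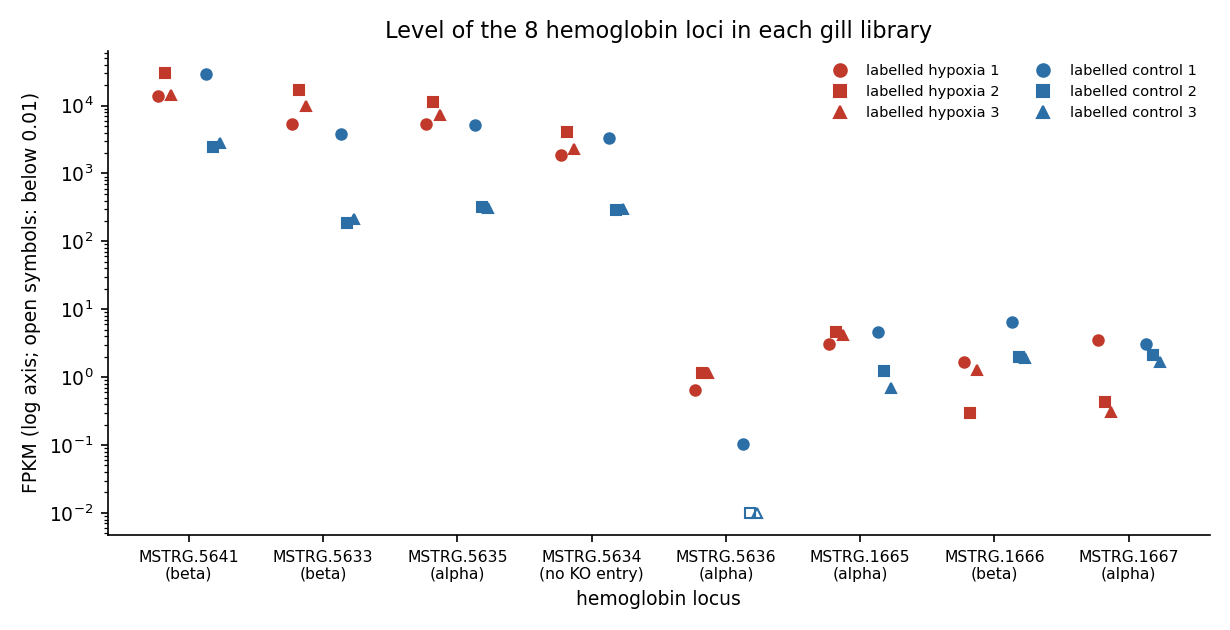
FPKM of the 8 hemoglobin loci on a log axis, 1 point per library, libraries labelled hypoxia in red to the left of those labelled control in blue; open symbols lie below 0.01 FPKM. In the 4 abundant loci control replicate 1 (blue circle) lies far above control replicates 2 and 3, and the other 4 loci stay at or below 6.50 FPKM in all libraries.

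The nprl3 run held the abundant globins. MSTRG.5641, a beta locus, was the highest of the 8 in each library, with 13649.6, 30474 and 14553 FPKM in the libraries labelled hypoxia, against 29057, 2421 and 2831 FPKM in those labelled control. It was the most abundant row of the whole table in all libraries but control replicates 2 and 3, where it ranked 7 and 4. The groups overlapped, since control replicate 1 lay above hypoxia replicates 1 and 3. The difference in log2(FPKM + 1) was 1.64 ± 0.99 (SE, labelled hypoxia minus labelled control, limma adjusted p = 0.354).

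MSTRG.5633, the second beta locus, was at 5322, 17104 and 9994 FPKM in the libraries labelled hypoxia, against 3876, 188 and 217 FPKM in those labelled control. All 3 libraries labelled hypoxia were higher than all 3 labelled control, although control replicate 1 was nearer to hypoxia replicate 1 than to control replicates 2 and 3. Means were 10807 ± 5933 FPKM in the hypoxia-labelled libraries and 1427 ± 2121 FPKM in the control-labelled ones (SD, n = 3 each), a ratio of 7.57. The log2 difference was 4.16 ± 1.22 (SE), with an unadjusted p of 0.0143 and a limma adjusted p of 0.101. Among the 8 loci it took rank 2 in hypoxia replicates 2 and 3 and rank 3 in hypoxia replicate 1, while it took rank 3 in control replicate 1 and rank 4 in control replicates 2 and 3.

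The alpha locus MSTRG.5635, named si:xx-by187g17.1, was at 5390, 11373 and 7360 FPKM in the libraries labelled hypoxia, against 5206, 322 and 307 FPKM in those labelled control. The groups did not overlap, but control replicate 1 lay just below hypoxia replicate 1. The log2 difference was 3.26 ± 1.13 (SE, limma adjusted p = 0.143). MSTRG.5634 was at 1845, 4116 and 2281 FPKM in the hypoxia-labelled libraries, against 3352, 292 and 300.3 FPKM in the control-labelled ones. Its groups overlapped, with a log2 difference of 1.96 ± 0.99 (SE, limma adjusted p = 0.277). MSTRG.5634 holds a single assembled transcript and shares its name with MSTRG.5637, a beta row that was at or under 0.476 FPKM in each library.

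Of the 8 loci, 7 had a mean of at least 1 FPKM and were tested, and 0 passed a limma adjusted p of 0.05, where 6.77% of the 25111 tested rows did (3.46% higher and 3.3% lower). On the TPM scale, with each library scaled to the same sum, the split was 593 higher and 941 lower, against 870 and 829, and the loci kept their directions. An unadjusted p under 0.05 was reached by 2 of the 7 (MSTRG.5633 and MSTRG.5635), against 25.4% of all tested rows. The median difference of the 7 was 1.64, beside 0.05 over all tested rows, and in each abundant locus the low libraries were control replicates 2 and 3. Without control replicate 1 all 4 abundant loci were past the threshold, with log2 differences of 2.80 for MSTRG.5641, 5.58 for MSTRG.5633, 4.60 for MSTRG.5635 and 3.12 for MSTRG.5634 (limma adjusted p = 0.0400, 0.0246, 0.0173 and 0.0302). In that fit 4.06% of all rows were called, 1.7% higher and 2.36% lower. The ratios of mean FPKM without this library were 7.45 for MSTRG.5641, 53.3 for MSTRG.5633, 25.6 for MSTRG.5635 and 9.28 for MSTRG.5634. The call of these 4 loci turns on control replicate 1.

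**Figure D2:**
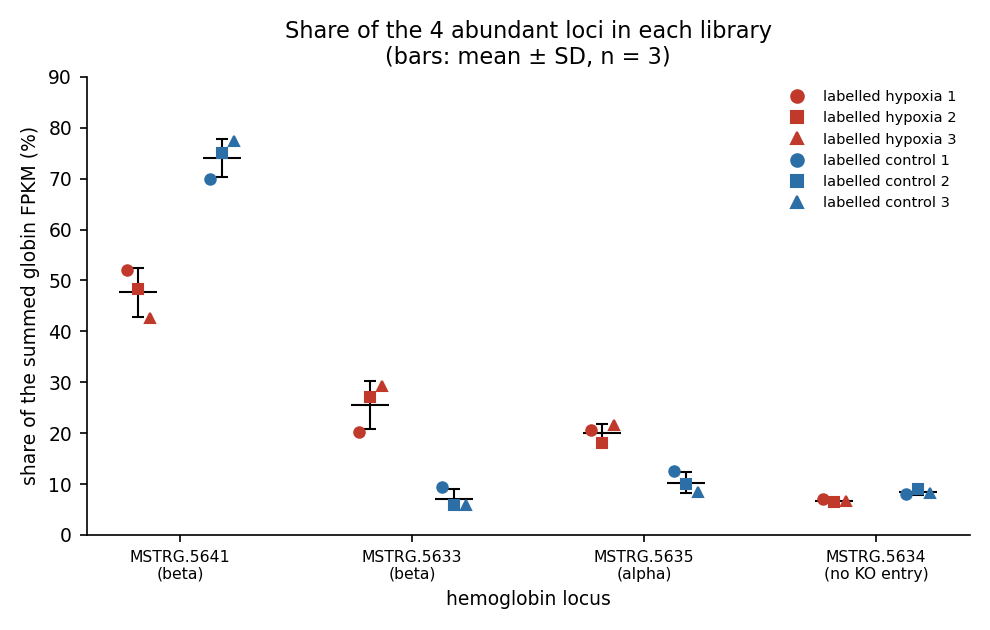
Share of each abundant locus in the summed globin FPKM, in percent, 1 point per library, with black bars for the mean ± SD of 3 libraries, labelled hypoxia in red and labelled control in blue. The groups do not overlap in any of the 4 loci, and control replicate 1 (blue circle) is the library labelled control that lies nearest to those labelled hypoxia for all loci.

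As shares of the summed globin, the 4 abundant loci separated the groups in each case. MSTRG.5633 made up 20.3, 27.1 and 29.2% in the libraries labelled hypoxia, against 9.34, 5.83 and 5.94% in those labelled control. The means were 25.5 ± 4.67% in the hypoxia-labelled libraries and 7.04 ± 1.99% in the control-labelled ones (SD, n = 3 each), a difference of 18.5 percentage points. For MSTRG.5635 the shares were 20.6, 18.03 and 21.5% in the hypoxia-labelled libraries, against 12.5, 9.98 and 8.39% in the control-labelled ones, a difference of 9.74 points. For MSTRG.5641 they were 52.1, 48.3 and 42.6% in the hypoxia-labelled libraries, against 70.01, 75.0 and 77.4% in the control-labelled ones, a difference of -26.5 points. The share of MSTRG.5634 moved little, at 7.04, 6.53 and 6.67% in the hypoxia-labelled libraries, against 8.08, 9.04 and 8.21% in the control-labelled ones, a difference of -1.69 points. Each of these 4 exact two-sided permutation p-values was 0.10, the smallest that 3 against 3 libraries allow, and 0.133 after Benjamini-Hochberg adjustment over the 8 loci.

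In all, the shares of 6 of 8 loci did not overlap between the groups, 3 higher and 3 lower in the libraries labelled hypoxia. Shares of one sum are tied to each other, so these are not 6 separate results. Among all tested rows, the ratio to the summed globin FPKM did not overlap in 12.5%, with 0.155% higher and 12.3% lower in the libraries labelled hypoxia. MSTRG.5633 and MSTRG.5635 were among the 39 tested rows that were higher. MSTRG.5636, also counted among the 6, was not a tested row. It and hbbe2, another of the 6, were at or below 6.50 FPKM in each library.

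A ratio between single loci equals the ratio of their shares, so it restates the mix and is not a separate result. When the locus on top has higher shares and the other lower shares, with no overlap, their ratio cannot overlap. This holds for MSTRG.5633 and MSTRG.5635 over MSTRG.5641. MSTRG.5633 over MSTRG.5641, one beta locus over the other, was 0.390, 0.561 and 0.687 in the libraries labelled hypoxia, against 0.133, 0.0778 and 0.0767 in those labelled control, a 5.69-fold ratio of means. The alpha locus MSTRG.5635 over MSTRG.5641 was 0.395, 0.373 and 0.506 in the hypoxia-labelled libraries, against 0.179, 0.133 and 0.108 in the control-labelled ones. MSTRG.5634 over MSTRG.5641 stayed within a narrower range, 0.135, 0.135 and 0.157 in the hypoxia-labelled libraries, against 0.115, 0.121 and 0.106 in the control-labelled ones, also with no overlap. With MSTRG.5641 left out of the sum, the share of MSTRG.5635 no longer separated the groups (34.9 to 42.9% in the hypoxia-labelled libraries against 37.03 to 41.8% in the control-labelled ones), while that of MSTRG.5633 did (42.4 to 52.5% in the hypoxia-labelled libraries against 23.3 to 31.1% in the control-labelled ones) and that of MSTRG.5634 was lower (11.6 to 14.7% in the hypoxia-labelled libraries against 26.9 to 36.2% in the control-labelled ones). MSTRG.5633 was also higher relative to the alpha locus MSTRG.5635, with ratios of 0.987, 1.50 and 1.36 in the libraries labelled hypoxia, against 0.744, 0.585 and 0.708 in those labelled control.

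Summed by chain, the alpha loci reached 5397, 11379 and 7365 FPKM in the libraries labelled hypoxia, against 5214, 325 and 309 FPKM in those labelled control. The 3 beta loci reached 18973, 47579 and 24548 FPKM in the hypoxia-labelled libraries, against 32939, 2611 and 3049.8 FPKM in the control-labelled ones. Alpha over beta was 0.284, 0.239 and 0.300 in the libraries labelled hypoxia, against 0.158, 0.125 and 0.101 in those labelled control, with no overlap. MSTRG.5634 was left out of both sums. Alpha transcripts were below beta transcripts in each library, on the per-length FPKM scale.

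**Figure D3:**
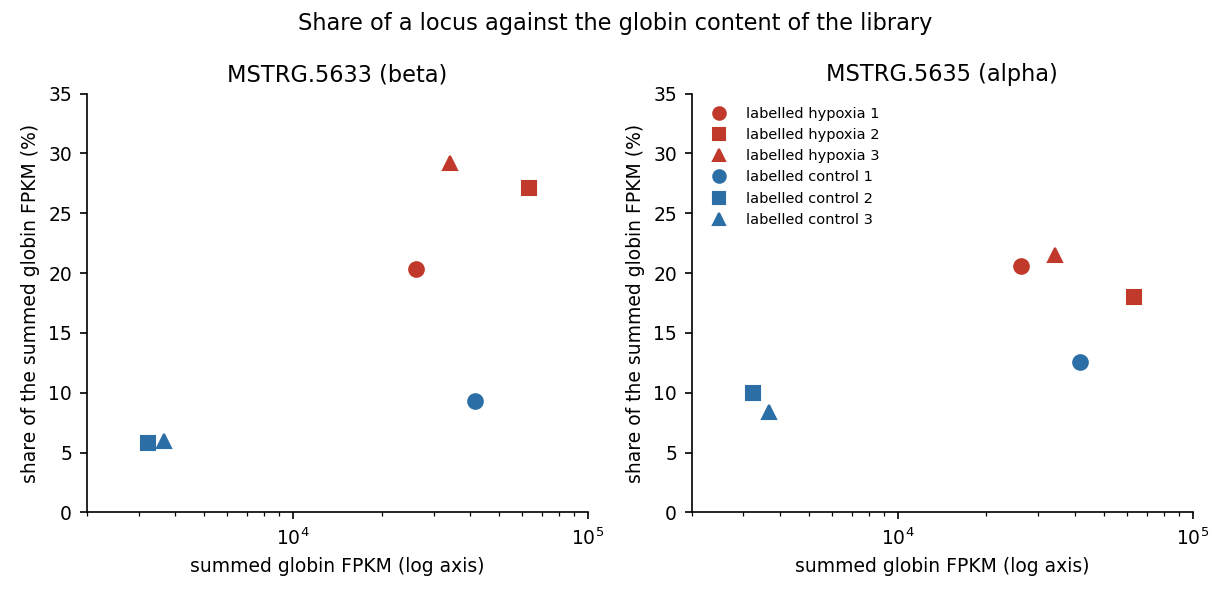
Share of MSTRG.5633 (left) and MSTRG.5635 (right) in the summed globin FPKM, in percent, against the summed globin FPKM on a log axis, 1 point per library. Control replicate 1 (blue circle) has a globin content between those of hypoxia replicates 3 and 2, and its shares of 9.34% and 12.5% stay below those of each library labelled hypoxia.

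Control replicate 1 held 41505 FPKM of globin, more than hypoxia replicates 1 and 3, and its share of MSTRG.5633 was 9.34%, against 20.3% in hypoxia replicate 1 and 29.2% in hypoxia replicate 3. Among the libraries labelled control, it held 12.9 times the globin of control replicate 2, and the shares of MSTRG.5633 in these libraries were 9.34% and 5.83%. The library with the most globin, hypoxia replicate 2, did not have the highest share of either locus. In each of the 4 abundant shares, control replicate 1 was also the library labelled control nearest to those labelled hypoxia. No correlation is given, because content, mix and label are tied to each other in 6 libraries.

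Covariates meant to stand for blood content were added to the limma fit, both chosen after the data were seen. The mean log2(FPKM + 1) of the erythrocyte marker rows, which hold no globin, was 3.32, 3.83 and 3.32 in the hypoxia-labelled libraries, against 3.91, 2.996 and 2.77 in the control-labelled ones. It was lowest in control replicates 2 and 3, as was globin, but highest in control replicate 1, whereas globin was highest in hypoxia replicate 2. The marker mean ranged from 2.77 to 3.91 over the 6 libraries, where the log2 summed globin ranged from 11.7 to 15.9. How far the marker mean stands for globin content was not tested, so a fit with it does not hold globin content equal. With it as a covariate, MSTRG.5633 (log2 difference 3.20 ± 0.46 SE, limma adjusted p = 0.0369) and MSTRG.5635 (2.37 ± 0.40 SE, limma adjusted p = 0.0484) passed the threshold and the other 5 did not, against 0 of 7 with no covariate. In that fit 4.75% of all rows were called, 2.5% higher and 2.26% lower. With the log2 summed globin as the covariate, 0 of 7 passed, beside 0.438% of all rows (0.227% higher and 0.211% lower). MSTRG.5633 then differed by 1.44 ± 0.19 (SE, limma adjusted p = 0.0548) and MSTRG.5641 by -0.56 ± 0.14 (SE, limma adjusted p = 0.132). MSTRG.5635 differed by 0.75 ± 0.19 (SE, limma adjusted p = 0.135) and hbbe2 (MSTRG.1666) by -1.63 ± 0.57 (SE, limma adjusted p = 0.223). The summed globin holds each locus itself. The fit gives each row its own slope on that sum, so these are adjusted differences and not differences in share.

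The other 4 loci were rare: the abundant ones made up at least 99.8% of the globin FPKM in each library. hbae3 (MSTRG.5636), whose zebrafish namesake is an embryonic alpha globin, lies in the nprl3 run and was at 0.648, 1.15 and 1.16 FPKM in the libraries labelled hypoxia. It was at 0.105 and 0.00369 FPKM in control replicates 1 and 2 and is listed at 0 in control replicate 3. The groups did not overlap, but its mean was under the filter of 1 FPKM, so it was not tested. With no filter its log2 difference was 0.93 ± 0.14 (SE, limma adjusted p = 0.0397, where 2.61% of 40538 rows were called, 1.28% higher and 1.33% lower).

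The rhbdf1b run held 3 rare loci. The names hbbe2 and hbz come from embryonic globins of other vertebrates, and zgc:163057 is a zebrafish clone name. In RefSeq's gene table of assembly O_niloticus_UMD_NMBU, hbbe2 likewise lies between the alpha genes hbae5 and hbae4, beside rhbdf1b. That table shares no identifier with the FPKM table, and its order of neighbours is the one thing taken from it. The beta locus hbbe2 (MSTRG.1666) was at 1.66, 0.292 and 1.27 FPKM in the libraries labelled hypoxia, against 6.50, 2.01 and 1.90 FPKM in those labelled control. The groups did not overlap, and the log2 difference was -1.02 ± 0.47 (SE, limma adjusted p = 0.238). It was -0.57 without control replicate 1 and -1.62 with a pseudocount of 0.1. The alpha locus hbz (MSTRG.1667) was at 3.53, 0.437 and 0.304 FPKM in the hypoxia-labelled libraries, against 3.07, 2.12 and 1.69 FPKM in the control-labelled ones (limma adjusted p = 0.460). In the libraries labelled hypoxia it was high in replicate 1 alone. The alpha locus zgc:163057 (MSTRG.1665) was at 3.09, 4.55 and 4.17 FPKM in the hypoxia-labelled libraries, against 4.56, 1.21 and 0.702 FPKM in the control-labelled ones (limma adjusted p = 0.307), so control replicate 1 was again the high library labelled control.

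Within the rhbdf1b run the shares of 2 of 3 loci did not overlap. All 3 loci were at or below 6.50 FPKM in each library, and their shares are tied to each other. How many of all tested rows would not overlap relative to this sum was not counted. zgc:163057 made up 37.3, 86.2 and 72.5% of the 3 loci in the libraries labelled hypoxia, against 32.3, 22.7 and 16.4% in those labelled control. hbbe2 made up 20.1, 5.52 and 22.2% in the hypoxia-labelled libraries, against 46.0, 37.6 and 44.2% in the control-labelled ones. hbz made up 42.6, 8.28 and 5.29% in the hypoxia-labelled libraries, against 21.8, 39.7 and 39.5% in the control-labelled ones, and overlapped. The exact two-sided permutation p was 0.1 for zgc:163057 and hbbe2, the smallest that 3 against 3 libraries allow, and 0.4 for hbz. Hypoxia replicate 1 lay nearest to the libraries labelled control for zgc:163057. The 3 loci summed to 8.28, 5.28 and 5.75 FPKM in the hypoxia-labelled libraries, against 14.1, 5.34 and 4.29 FPKM in the control-labelled ones, so they spanned 3.29-fold over the 6 libraries, where the 8 loci spanned 19.5-fold.

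In levels, 3 of 8 loci were higher in the libraries labelled hypoxia with no overlap (MSTRG.5633, MSTRG.5635 and MSTRG.5636) and 1 was lower (hbbe2), where 33.2% of the tested rows did not overlap in either direction. MSTRG.5636 itself was not among those tested rows. Another 4 rows of the table are annotated as hemoglobin or share its names, and they stayed at or under 0.731 FPKM in each library. The unnamed row MSTRG.5640, numbered just before MSTRG.5641 and named here after its values were seen, was at 26.9, 64.2 and 31.4 FPKM in the libraries labelled hypoxia, against 19.8, 3.24 and 2.52 FPKM in those labelled control (limma adjusted p = 0.0986). Of the genes that flank the runs, nprl3, whose introns hold the main alpha globin enhancers in mammals, was at 7.31 ± 0.28 FPKM in the hypoxia-labelled libraries and 6.06 ± 0.69 FPKM in the control-labelled ones (SD, n = 3 each, limma adjusted p = 0.270). kank2 was at 6.38 ± 0.19 FPKM in the hypoxia-labelled libraries and 7.16 ± 0.91 FPKM in the control-labelled ones (SD, n = 3 each, limma adjusted p = 0.529). rhbdf1b, an inactive rhomboid protease, rose, with 5.09 ± 0.39 FPKM in the hypoxia-labelled libraries and 2.86 ± 0.24 FPKM in the control-labelled ones (SD, n = 3 each, limma adjusted p = 0.0353).

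Some erythrocyte genes, though not all of those listed, had a profile over the libraries like that of globin. Among 7561 rows that have a gene symbol and average 5 FPKM or more, hemoglobin rows left out, the 5 whose centred log2(FPKM + 1) profile over the 6 libraries differed least from that of the summed globin were yeats4, cahz, atad2, rhd and klf1. Their root-mean-square differences were 0.52 to 0.63 on the log2 scale. cahz, the erythrocyte carbonic anhydrase of zebrafish, was at 24.3, 71.2 and 27.7 FPKM in the libraries labelled hypoxia, against 79.2, 5.42 and 6.41 FPKM in those labelled control (limma adjusted p = 0.494). rhd, an Rh blood group protein of the erythrocyte membrane, was at 15.6, 19.998 and 13.6 FPKM in the hypoxia-labelled libraries, against 22.5, 2.37 and 2.89 FPKM in the control-labelled ones (limma adjusted p = 0.315). klf1 (MSTRG.20771), a transcription factor that switches on globin genes in mammals, was at 5.86, 14.9 and 8.19 FPKM in the hypoxia-labelled libraries, against 13.7, 1.09 and 1.64 FPKM in the control-labelled ones (limma adjusted p = 0.384). All 3 were higher in control replicate 1 than in hypoxia replicate 1. The chromatin protein yeats4 is listed at 0 in control replicates 2 and 3 and was at 9.78 to 14.7 FPKM in the other libraries. atad2, a chromatin ATPase, was at 5.16, 17.98 and 12.9 FPKM in the hypoxia-labelled libraries, against 7.35, 1.29 and 0.519 FPKM in the control-labelled ones.

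Of 28 tested rows of erythrocyte markers outside the globins, 0 rose, 2 fell and 26 did not pass, where 6.77% of all tested rows passed, so the share of the markers was near that of all rows. The median difference was 0.41, beside 0.05 over all tested rows, and 0.91 without control replicate 1. The rows that fell were both named tfr1b, a transferrin receptor, which takes up iron. Whether they are 2 gene copies or 1 split gene is not known. MSTRG.2440 was at 9.16, 8.75 and 8.16 FPKM in the libraries labelled hypoxia, against 18.4, 33.5 and 43.0 FPKM in those labelled control (log2 difference -1.67 ± 0.30 SE, limma adjusted p = 0.0329). MSTRG.2439 had an adjusted p of 0.0430 in limma. The row named tfr1a (MSTRG.20142) overlapped between the groups and did not pass (limma adjusted p = 0.389). With any 1 library other than control replicate 1 left out 0 of the marker rows passed, and without control replicate 1 there were 2 higher and 2 lower. Both tfr1b rows were lower in control replicate 1 than in the other libraries labelled control, unlike the globins. The Rh-associated transporter rhag, which the gill also uses for gas and ammonia, was at 62.0, 63.9 and 38.8 FPKM in the hypoxia-labelled libraries, against 25.8, 29.9 and 16.7 FPKM in the control-labelled ones (limma adjusted p = 0.0677). The erythroid cofactor lmo2 was at 11.0, 16.04 and 12.8 FPKM in the hypoxia-labelled libraries, against 2.36, 5.77 and 6.24 FPKM in the control-labelled ones (limma adjusted p = 0.0650). Unlike the globins, lmo2 was lowest in control replicate 1, and rhag was lower there than in control replicate 2. Of the 28 rows, 16 were at least 2-fold higher in control replicate 1 than in control replicates 2 and 3, as were 3.85% of all tested rows. The markers summed to 375, 603 and 377 FPKM in the libraries labelled hypoxia, against 718, 346 and 326 FPKM in those labelled control.

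**Figure D4:**
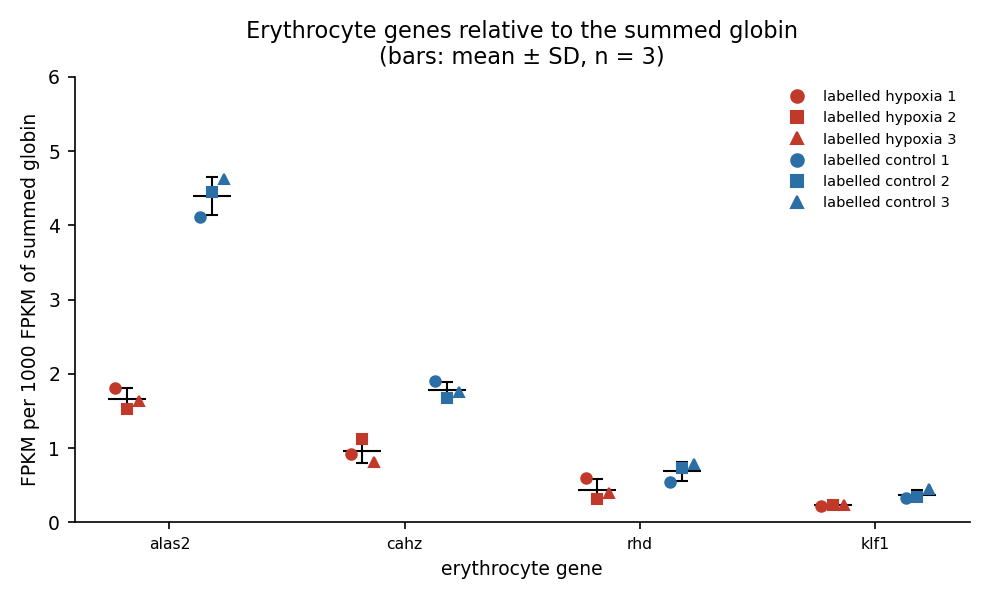
FPKM of 4 erythrocyte genes per 1000 FPKM of summed globin, 1 point per library, with black bars for the mean ± SD of 3 libraries, labelled hypoxia in red and labelled control in blue. alas2 is at 1.53 to 1.81 in the libraries labelled hypoxia and at 4.12 to 4.63 in those labelled control; rhd overlaps.

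Relative to globin, 14 of the 28 erythrocyte rows tested were lower under the hypoxia label with no overlap and 0 were higher. Of all tested rows 12.3% were lower, but this is not a like baseline. Control replicate 1 held more globin than hypoxia replicates 1 and 3, so a row at an even level overlaps in this ratio. Rows high in control replicate 1 separate more easily. These were 16 of the 28, at least 2-fold above control replicates 2 and 3, against 3.85% of all tested rows. alas2, the erythroid enzyme that starts heme synthesis, was chosen for this ratio after its values were seen. Its level was 47.6, 96.2 and 55.8 FPKM in the libraries labelled hypoxia, against 171, 14.3 and 16.9 FPKM in those labelled control (limma adjusted p = 0.626). Per 1000 FPKM of globin it was 1.81, 1.53 and 1.63 in the hypoxia-labelled libraries, against 4.12, 4.44 and 4.63 in the control-labelled ones. Among the libraries labelled control the summed globin spanned 12.9-fold, and the ratio of MSTRG.5641 to alas2 1.02-fold. cahz was at 0.927, 1.13 and 0.809 per 1000 FPKM of globin in the hypoxia-labelled libraries, against 1.91, 1.68 and 1.75 in the control-labelled ones, and klf1 (MSTRG.20771) at 0.223, 0.237 and 0.240 in the hypoxia-labelled libraries, against 0.330, 0.339 and 0.449 in the control-labelled ones. The other tested klf1 row, MSTRG.20772, overlapped. It was at 0.0799, 0.0541 and 0.0690 in the hypoxia-labelled libraries, against 0.0754, 0.0687 and 0.109 in the control-labelled ones.

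That count depends on which globin is the denominator. Per 1000 FPKM of the major beta locus MSTRG.5641 alone, 6 of 28 rows were lower with no overlap and 0 were higher, beside 5.37% of all tested rows that were lower and 0.247% that were higher. Control replicate 1 was high in MSTRG.5641 as well, so the 5.37% is not a like baseline either. Rows that share a gene name were counted separately. The dmtn rows MSTRG.23412 and MSTRG.23413 are in this count and in that per summed globin. Whether they are separate genes is not known. alas2 was among the 6, with 3.49, 3.16 and 3.84 in the libraries labelled hypoxia, against 5.88, 5.93 and 5.98 in those labelled control. cahz and klf1 overlapped on that scale. Set per alas2, which was picked after its values were seen, each abundant locus was higher in the libraries labelled hypoxia. For MSTRG.5641 this is the ratio above turned over, so it adds no separate result. How many of all tested rows were higher per alas2 was not counted. MSTRG.5641 was at 287, 317 and 261 times the alas2 FPKM in the hypoxia-labelled libraries, against 170.0, 168.7 and 167 in the control-labelled ones. MSTRG.5633 was at 112, 178 and 179 times in the hypoxia-labelled libraries, against 22.7, 13.1 and 12.8 in the control-labelled ones.

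Of 19 tested rows of heme synthesis and breakdown, 0 rose and 2 fell, where 3.46% of all tested rows rose and 3.3% fell. The 2 were the heme oxygenases HMOX1 (MSTRG.12912) and hmox2a, which break heme down. The other heme oxygenase rows, hmox1a (limma adjusted p = 0.434) and hmox2b (limma adjusted p = 0.841), did not pass. hmox2b was at 5.92 ± 0.91 FPKM in the hypoxia-labelled libraries and 6.51 ± 1.95 FPKM in the control-labelled ones (SD, n = 3 each), above hmox2a. HMOX1 was at 4.08, 3.90 and 5.33 FPKM in the libraries labelled hypoxia, against 19.3, 15.3 and 20.9 FPKM in those labelled control (log2 difference -1.84 ± 0.17 SE, limma adjusted p = 0.00954). hmox2a was at 0.688 ± 0.137 FPKM in the hypoxia-labelled libraries and 2.86 ± 0.860 FPKM in the control-labelled ones (SD, n = 3 each, limma adjusted p = 0.0418). Neither followed the globin content, since control replicate 1 was like the other libraries labelled control. The housekeeping first enzyme of heme synthesis, alas1 (MSTRG.21830), was at 37.8 ± 2.72 FPKM in the hypoxia-labelled libraries and 51.4 ± 6.57 FPKM in the control-labelled ones (limma adjusted p = 0.104), and the later enzyme cpox at 3.12, 2.72 and 4.36 FPKM in the hypoxia-labelled libraries, against 22.8, 7.06 and 7.89 FPKM in the control-labelled ones (limma adjusted p = 0.105).

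Globins outside erythrocytes did not follow the content either. Myoglobin (Mb), which stores oxygen in muscle, was at 975, 823 and 996 FPKM in the libraries labelled hypoxia, against 1641, 1728 and 1243 FPKM in those labelled control (log2 difference -0.71 ± 0.16 SE, limma adjusted p = 0.0555). The groups did not overlap, and in control replicates 2 and 3 Mb exceeded MSTRG.5633, MSTRG.5635 and MSTRG.5634. The cytoglobin cygb1 was at 7.20 ± 0.70 FPKM in the hypoxia-labelled libraries and 8.07 ± 2.20 FPKM in the control-labelled ones (SD, n = 3 each, limma adjusted p = 0.765). Of the erythropoietin pathway 0 of 6 tested rows passed in limma, and of the plasma binders of hemoglobin and heme 0 of 1. At an unadjusted p under 0.05 there were 0 in either list. Over all tested rows 6.77% passed and 25.4% had an unadjusted p under 0.05.

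Markers of other cells were counted in the same fit, in which 6.77% of all tested rows passed, 3.46% higher and 3.3% lower. Of 8 leukocyte rows 4 rose and 0 fell, and their sum was 324 to 341 FPKM in the libraries labelled hypoxia and 169 to 182 FPKM in those labelled control. The pan-leukocyte phosphatase ptprc was at 96.7, 94.3 and 106.8 FPKM in the hypoxia-labelled libraries, against 57.2, 59.96 and 51.9 FPKM in the control-labelled ones (limma adjusted p = 0.0159). Unlike the globins, these sums did not single out control replicate 1. Of 9 thrombocyte rows 0 rose and 1 fell, the integrin itgb3a (19.8 ± 1.68 FPKM in the hypoxia-labelled libraries and 39.5 ± 1.34 FPKM in the control-labelled ones, SD, n = 3 each, limma adjusted p = 0.0117). The thrombocyte sum was 84.5, 104 and 74.0 FPKM in the hypoxia-labelled libraries, against 139, 86.7 and 88.1 FPKM in the control-labelled ones. Unlike the leukocyte sum, it was highest in control replicate 1, so a high control replicate 1 was not confined to erythrocyte genes. None of 12 endothelial, 8 gill epithelium or 10 ionocyte rows passed in limma, and at an unadjusted p under 0.05 there were 5, 4 and 2, where 25.4% of all tested rows reached it. Directions among these were mixed in each list. In gill epithelium krt4, krt5 and krt97 were higher and epcam (MSTRG.18717) was lower. The far more abundant epcam row MSTRG.18716 overlapped between the groups (limma adjusted p = 0.434). The endothelial sum was 78.4 to 97.9 FPKM in the hypoxia-labelled libraries against 70.3 to 83.0 FPKM in the control-labelled ones. The part of these cells in the globin mix was not tested.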

How the data were processed

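The values came from a single table of gene-level FPKM covering all 6 gill libraries. The authors made the deposited FPKM values; the tools HISAT and StringTie are named by the submitters' processing notes. Their versions, the build and the annotation are not given in those sources. Assembled StringTie loci can merge or split genes, and near-identical globin copies can share reads, so the split between loci is uncertain. The RefSeq gene table matched 0 identifiers and was used for neighbours only. No sequences or positions are reported.

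The 25111 rows averaging 1 FPKM or more were tested on log2(FPKM + 1) with limma 3.58.1 in R 4.3.3 (mean-variance trend, two-sided, no covariates). Adjustment followed Benjamini and Hochberg across all of them, with a threshold of 0.05; the log2 scale understates changes of low rows. Shares were tested with exact permutation (scipy 1.17.1). The fit was tested on simulated data. Depth is unknown, so precision is the spread of 3 libraries. Members and 10 gene lists were chosen with earlier results of these data known. The rule for named genes took each member and up to 4 rows of each list with the smallest p (not all are printed). It also took the 5 rows most like the summed globin. Named outside the rule or after their values were seen were alas2, blvrb, gata1a, egln3, tfr1a, dmtn, MSTRG.5640, the flanking genes and other rows or copies of named genes. Alternatives were other pseudocounts, filters, scalings, denominators, a replicate block and each library left out.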

Additional observations from a re-analysis of the deposited data

How the results depend on the processing

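The number of loci past the threshold was 0 in the reported fit and in the fits with a pseudocount of 0.1, robust empirical Bayes, a minimum mean of 5 FPKM, the hemoglobin loci left out of the library sums, and quantile, median-of-ratios or TPM scaling. It was 1 with no filter on low values (MSTRG.5636, not tested otherwise) and 2 with the erythrocyte markers as a covariate. Leaving out 1 library gave 0 to 4 loci, the 4 without control replicate 1. Of 102 alternatives planned for the 7 tested loci, 98 kept the direction and the side of the threshold, 4 moved past it and 0 reversed. The summed globin as a covariate was a choice made after seeing the data. With it, MSTRG.5641 (-0.56), MSTRG.5634 (-0.25), MSTRG.1665 (-0.10) and the median of the erythrocyte rows (-0.48) changed sign. These are then differences adjusted for the globin content, with a slope fitted to each row.

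The summed globin ratio was 1.82 to 11.95 with 1 library left out, the highest without control replicate 1. It was 2.42 on the TPM scale and 2.43 with median-of-ratios scaling. Shares kept their direction in 84 of 86 alternatives, not all of which could have reversed it. The exceptions were MSTRG.5635 with MSTRG.5641 left out of the sum (-1.16 points) and MSTRG.1665 within its own run (41.6 points); in both the denominator changed. The replicate block leaves the difference of means as it is, and leaving out 1 library cannot reverse shares that do not overlap. The number of shares that did not overlap was 5 to 8 over all alternatives.

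With the replicate number as a block, 0 loci passed and the adjusted p was 0.208 for MSTRG.5633 and 0.412 for MSTRG.5641; over all rows 2 were called. As pairs, 6 of 8 shares moved one way in all 3 pairs, which groups that do not overlap must do. Their exact permutation p was 0.25, the smallest that 3 pairs allow. Deviations of same-numbered libraries from their group means correlated at -0.056, -0.044 and -0.116. Each library labelled hypoxia correlated least with the library labelled control of its own number. The labels do not say whether the numbers pair fish or tanks. The erythrocyte rows numbered 2 higher and 2 lower both with a minimum mean of 5 FPKM and without control replicate 1, and 0 passed with the replicate block, with no filter, or without any 1 of the other 5 libraries. FPKM carry no counts, so depth limits cannot be stated for the rare loci.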

Other observations

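At a mean of 5 FPKM or more, and with all hemoglobin rows left out, the 4 rows closest in profile to the summed globin had no gene symbol; they were chosen after their values were seen. MSTRG.7239, MSTRG.33633, MSTRG.5640 and MSTRG.18599 had root-mean-square differences of 0.24, 0.31, 0.43 and 0.43 on the log2 scale, below those of the rows with a symbol. Of the loci themselves, MSTRG.5634 differed from the sum by 0.17 and MSTRG.5641 by 0.33. MSTRG.7239 was at 8.74, 23.1 and 13.1 FPKM in the libraries labelled hypoxia, against 9.68, 0.0900 and 0.0542 FPKM in those labelled control. MSTRG.33633 was at 13.8, 45.7 and 25.1 FPKM in the hypoxia-labelled libraries, against 16.7, 0.861 and 1.85 FPKM in the control-labelled ones. Control replicate 1 was the high library labelled control in both, and neither passed the test (limma adjusted p = 0.1503 and 0.152).

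The heme breakdown enzyme blvrb, which reduces biliverdin and is abundant in erythrocytes of mammals, was at 45.3, 77.7 and 43.7 FPKM in the libraries labelled hypoxia, against 40.2, 11.3 and 13.4 FPKM in those labelled control (limma adjusted p = 0.134). Its high library labelled control was again replicate 1. The erythroid factor gata1a was at 18.4, 36.2 and 22.8 FPKM in the hypoxia-labelled libraries, against 35.8, 8.81 and 9.91 FPKM in the control-labelled ones (limma adjusted p = 0.470). Per 1000 FPKM of globin gata1a was at 0.700, 0.574 and 0.667 in the hypoxia-labelled libraries, against 0.863, 2.73 and 2.71 in the control-labelled ones, so control replicate 1 lay near the libraries labelled hypoxia in this ratio, unlike in that of alas2.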
